A study of Mus musculus with 5 samples.

Results

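The 10 genes described here encode transcription and splicing regulators of epithelial cells: the grainyhead-like factors Grhl1, Grhl2 and Grhl3, the zinc finger repressors Ovol1 and Ovol2, the ETS factors Ehf, Elf3 and Elf5, and the splicing regulators Esrp1 and Esrp2. They were chosen by symbol: all probe sets whose single gene symbol in the platform annotation was one of the 10. That gave 19 of 34958 single-symbol probe sets on arrays of 45101, and 10 of 18194 genes. The rule itself used no measured value, but members and lists were chosen with earlier results of these data known. RNA came from GFP-positive cells sorted by flow cytometry from trypsin-dissociated SPC-GFP mouse lungs at postnatal day 2. SPC commonly stands for surfactant protein C, the marker protein of alveolar type 2 cells, and the transgenic line had been mated with outbred ICR mice. All 5 samples, called biological replicates, carried the same genotype and formed 1 group, so no genotype, treatment or age could be compared. The labels do not say how the transgene is driven, or whether a sample was 1 pup or a pool, so p-values reflect only how these 5 samples vary.

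Grainyhead-like proteins bind DNA in surface epithelia and keep genes of cell junctions active, and GRHL2 is known for this in the lung. OVOL proteins repress the genes of factors such as ZEB1 that drive epithelial cells towards a mesenchymal state, and ZEB1 in turn represses epithelial genes. EHF, ELF3 and ELF5 belong to the ETS branch found mainly in epithelia. ESRP1 and ESRP2 bind RNA and direct the epithelial choice of exons, for example in the transcript of the growth factor receptor gene Fgfr2.

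Titles and source name the sorted cells alveolar type 2, whereas the design text says ciliated. The type 2 markers Sftpc and Sftpb, surfactant protein genes, averaged 14.67 and 14.13 log2 units, and all 8 type 2 markers were called above background. The ciliary regulator gene Foxj1 averaged 7.91, the lowest mean of the 8 ciliated markers. Marker means ran from 12.96 to 14.71 for type 2 and 7.91 to 9.75 for ciliated genes. They ran from 11.59 to 14.68 for type 1 and 9.09 to 14.50 for club genes. All 8 ciliated markers were called too, beside 74.9% of all genes outside the receptors that set background. So were 8 of 8 type 1, club, endothelial and immune markers each. Of the rest, 7 of 8 fibroblast and smooth muscle, 6 of 8 basal, 4 of 8 mesothelial and 3 of 5 erythroid markers were called. The basal count includes Pdpn (13.24), which is also a type 1 marker here, and the basal median lay 0.88 log2 units above background. Markers of several cell types were thus measured, and in bulk samples fewer cells of a type and less RNA per cell cannot be told apart. Across replicates 1 to 5, the markers' mean deviation from their own means was 1.02, 0.30, −0.56, −0.38 and −0.37 for ciliated genes and 0.09, 0.45, −0.86, −0.07 and 0.39 for fibroblast and smooth muscle genes. Background here is, on each array, the 95th percentile over 77 genes for smell, taste and pheromone receptors, and lay between 5.43 and 5.70 log2 units. The number of arrays limits the precision.

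All 10 regulators passed limma's one-sided test against background (moderated, Benjamini-Hochberg adjusted p under 0.05 over all genes), where 74.9% of all genes outside the receptor set were called. Their median signal lay 4.69 log2 units above background, beside 3.42 for all genes outside the receptor set and 4.51 for those of them that were called. Of their 19 probe sets 17 were called, where 72.3% of all probe sets were. The exceptions were 1 probe set each of Grhl2 and Ehf, genes with other, brighter probe sets. Signals of different genes are not ranked, since probes differ in how well they hybridise.

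**Figure D1:**
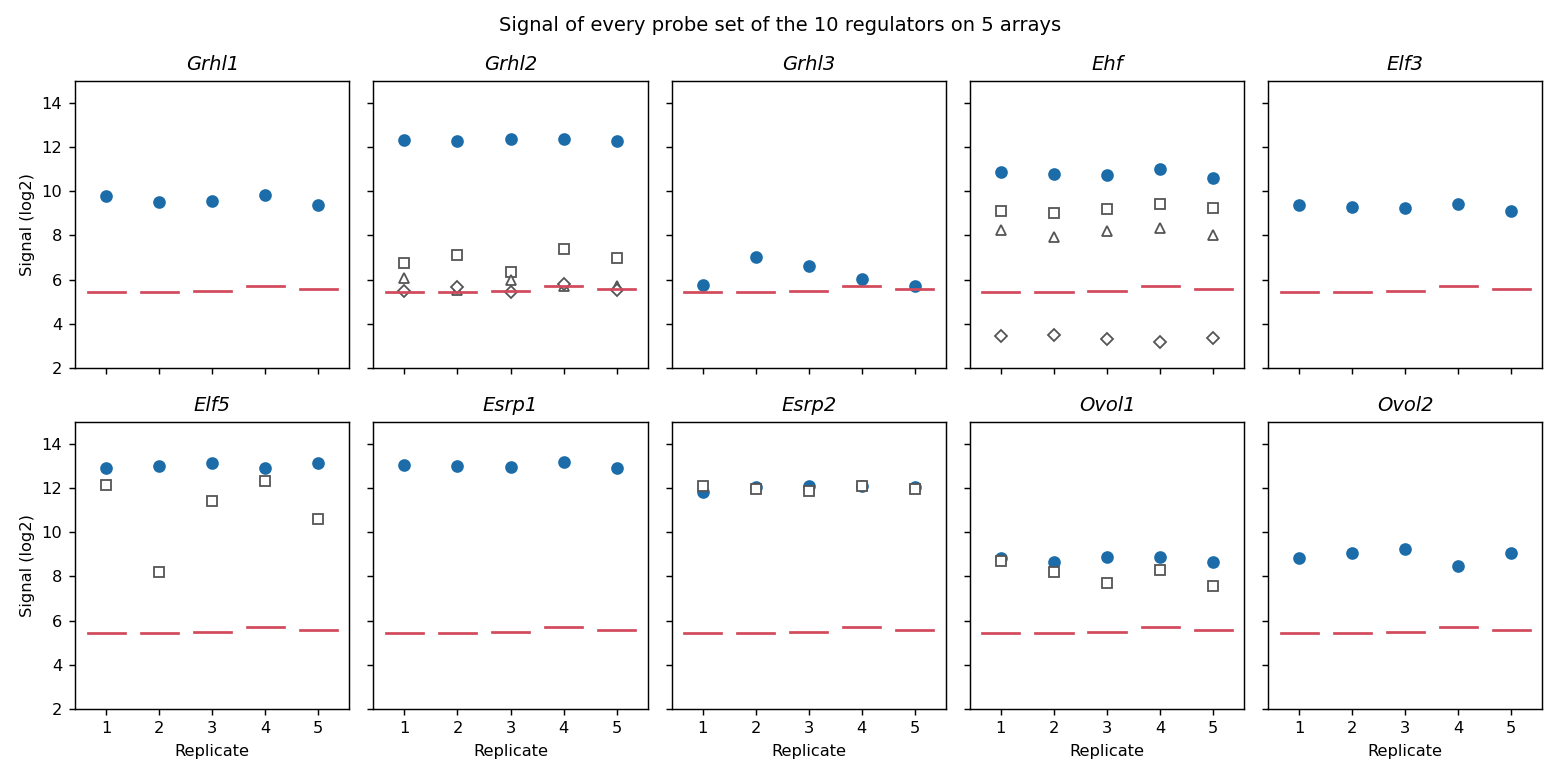
Signal (log2, vertical axis) of every probe set of the 10 regulators in replicates 1 to 5 (horizontal axis). Filled circles are the probe set of highest mean of each gene, open symbols its other probe sets, and red bars the background of each array (5.43 to 5.70). The filled circles of Grhl3 lie closest to the bars, and the open squares of Elf5 drop to 8.22 in replicate 2.

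Grhl2 had the smallest spread of the 10 genes over replicates. It read 12.31, 12.30, 12.37, 12.37 and 12.27 in replicates 1 to 5, a mean of 12.32 ± 0.0434 (SD, n = 5) and 6.80 log2 units above background (SE 0.0639, limma adjusted p = 1.98e-20). The lowest and highest replicates thus differed 1.07-fold. Its other 3 probe sets averaged 6.92 (1431877_a_at), 5.80 (1431878_at) and 5.58 (1452643_at); the last was not called (limma adjusted p = 0.219). With the median over its 4 probe sets, Grhl2 lay 1.00 log2 units above background and was still called. RefSeq places the gene model Gm16136 over part of Grhl2, and which transcript each probe set reads was not tested.

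Grhl1, the relative of Grhl2 with overlapping roles in skin, read 9.81, 9.50, 9.57, 9.85 and 9.39 in replicates 1 to 5. Replicates 1 and 4 were high and replicate 5 was low, a 1.38-fold range. The mean was 9.62 ± 0.20 (SD, n = 5), 4.10 log2 units above background (SE 0.0985, limma adjusted p = 9.88e-16).

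Grhl3, the family member known for neural tube closure and the skin barrier, lay closest to background. It read 5.77, 7.04, 6.61, 6.05 and 5.68 in replicates 1 to 5, against background of 5.45, 5.43, 5.47, 5.70 and 5.55. All 5 values exceeded the background of their own array, by as little as 0.13 log2 units in replicate 5, with replicates 2 and 3 the high ones. The mean of 6.23 ± 0.580 (SD, n = 5) was 0.71 log2 units above background (SE 0.195, limma adjusted p = 0.00200). With the 99th percentile of the receptor genes as background the difference was −0.25, with genes of other organs it was −2.81, and the call was lost under both. Its range of 2.55-fold was the widest among the genes' main probe sets and did not pass the spread test (F test on the limma variance fit, unadjusted p = 0.0723). RefSeq places the gene model Gm30888 over part of Grhl3, and whether the probes also read it was not tested.

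The promoter of Grhl3 is shown because Grhl3 was the member nearest to background and its window holds 1 of the letters searched. The promoter set used here held 5 of the 10 genes (Grhl1 and Elf5 with 2 starts each, Grhl3, Elf3 and Ovol2 with 1). Promoters of Grhl2, Ehf, Esrp1, Esrp2 and Ovol1 were not in it and were not searched. The 250 bases before each start were searched on both strands. The motifs were AACCNGTT and its reverse complement AACNGGTT (grainyhead-like), ACCGGAAG and CAGGAAG (ETS), CACCTG (the E-box bound by ZEB and SNAI factors) and CCGTTA (OVOL). Only CACCTG was found, in 3 of the 7 windows, one each of Grhl3, Elf3 and Elf5. Among 32851 promoter windows of that length, 17.2% hold CACCTG, 10.8% CAGGAAG, 2.18% CCGTTA, 1.79% AACCNGTT and 1.72% ACCGGAAG. In Grhl3 the match starts 19 bases before the transcript start. The window lies on the minus strand of build GRCm38.p6 at chr4:135573633-135573882, with the match in capitals.
Grhl3: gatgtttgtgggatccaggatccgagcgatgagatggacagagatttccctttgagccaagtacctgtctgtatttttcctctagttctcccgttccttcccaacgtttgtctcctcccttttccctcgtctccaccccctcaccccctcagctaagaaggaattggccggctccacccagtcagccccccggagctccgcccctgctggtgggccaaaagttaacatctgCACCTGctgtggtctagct

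Ovol1 was measured by 2 probe sets that spread differently over the replicates. The brighter, 1419051_at, read 8.82, 8.67, 8.89, 8.88 and 8.65 in replicates 1 to 5 (8.78 ± 0.115, SD, n = 5), a range of 1.18-fold. It lay 3.26 log2 units above background (SE 0.106, limma adjusted p = 5.03e-14), and −0.25 relative to a background set by genes of other organs, where the call was lost. The other, 1419052_at, read 8.69, 8.20, 7.71, 8.29 and 7.58, a range of 2.15-fold, and was called as well (limma adjusted p = 9.56e-11). Both were lowest in replicate 5, while replicate 3 was the highest of the one and the second lowest of the other. RefSeq places Ap5b1 and Gm31166 over part of the Ovol1 locus.

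Ovol2, the family member tied to epithelial identity and vessel and neural development, read 8.83, 9.05, 9.25, 8.46 and 9.07 in replicates 1 to 5. Replicate 4 was the low one and replicate 3 the high one, a 1.72-fold range. The mean was 8.93 ± 0.301 (SD, n = 5), 3.41 log2 units above background (SE 0.136, limma adjusted p = 7.65e-13). With background set by genes of other organs the difference was −0.11 and the call was lost. The spread did not pass (F test on the limma fit, unadjusted p = 0.223).

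Elf5, an ETS factor known from the distal lung epithelium and from mammary and placental development, gave 2 different pictures from its 2 probe sets. Probe set 1419555_at read 12.93, 13.00, 13.15, 12.90 and 13.13 in replicates 1 to 5 (13.02 ± 0.114, SD, n = 5), a 1.19-fold range. It lay 7.50 log2 units above background (SE 0.0702, limma adjusted p = 1.91e-20). Probe set 1419556_at read 12.13, 8.22, 11.40, 12.33 and 10.60 in the same RNA (10.94 ± 1.66, SD, n = 5), a 17.3-fold range. Replicate 2 was the low one, 3.40 log2 units or 10.5-fold below the mean of the other 4, whereas 1419555_at in replicate 2 lay only 0.03 below the mean of its other 4.

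The difference between these probe sets moved by 4.21 log2 units over the arrays. Among 2055 genes whose second probe set averaged at least 10, the median of that movement was 0.29, and Elf5 was the 1 gene at or above 4.21, a ranking made after its values were seen. By range, 1419556_at was number 20 of 34958 probe sets. It did not pass the spread test over all probe sets (F test on the limma fit, unadjusted p = 3.66e-05, adjusted p = 0.116); 5.47% of probe sets had an unadjusted p under 0.05 and 0% passed after adjustment. Without replicate 2 its range fell to 1.74 log2 units (unadjusted p = 0.000917, adjusted p = 0.836). Which Elf5 transcripts each probe set reads, and whether the array or the RNA of replicate 2 differs, was not tested.

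**Figure D2:**
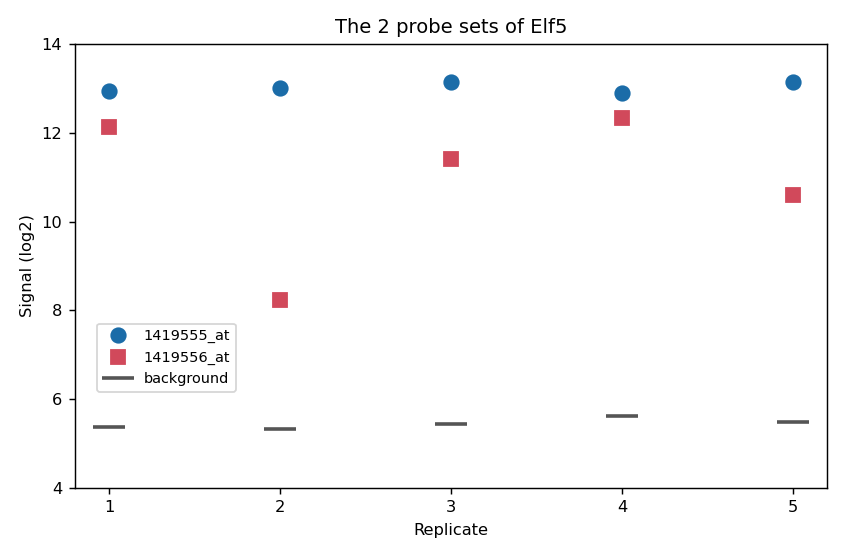
Signal (log2, vertical axis) of the 2 Elf5 probe sets in replicates 1 to 5 (horizontal axis), with dashes for the background of each array over receptor probe sets. Circles (1419555_at) stay between 12.90 and 13.15, while squares (1419556_at) run from 8.22 in replicate 2 to 12.33 in replicate 4.

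The promoter set used here lists 2 starts for Elf5, 11970 bases apart. Both upstream windows are shown because the gene's probe sets disagreed. The upstream start has 3 CACCTG matches, in capitals, beginning 155, 112 and 11 bases before it, and the downstream start has none of the motifs searched. Both lie on the plus strand of build GRCm38.p6, at chr2:103411848-103412097 and chr2:103423818-103424067. The windows have 62.8% and 56.8% G and C.
Elf5 upstream start: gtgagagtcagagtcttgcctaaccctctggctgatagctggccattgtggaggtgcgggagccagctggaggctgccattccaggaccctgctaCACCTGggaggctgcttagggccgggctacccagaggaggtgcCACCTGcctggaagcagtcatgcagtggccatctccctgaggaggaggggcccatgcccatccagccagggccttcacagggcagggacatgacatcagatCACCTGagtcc
Elf5 downstream start: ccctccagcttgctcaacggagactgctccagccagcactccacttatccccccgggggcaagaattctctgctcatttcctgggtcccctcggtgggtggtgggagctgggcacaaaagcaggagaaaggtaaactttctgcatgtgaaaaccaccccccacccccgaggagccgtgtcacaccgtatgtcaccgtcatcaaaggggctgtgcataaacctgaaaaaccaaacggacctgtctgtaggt

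Ehf, an ETS factor of glandular and airway epithelium, had 4 probe sets. The brightest, 1451375_at, read 10.88, 10.77, 10.75, 11.03 and 10.58 in replicates 1 to 5 (10.80 ± 0.166, SD, n = 5). Replicate 4 was high and replicate 5 low, a 1.37-fold range, and the signal lay 5.28 log2 units above background (SE 0.0807, limma adjusted p = 3.42e-18). The probe sets 1419474_a_at and 1419475_a_at averaged 9.19 ± 0.145 and 8.15 ± 0.174 (SD, n = 5), were also highest in replicate 4, and were lowest in replicate 2. Probe set 1447760_x_at, whose suffix marks probes that may also match other transcripts, averaged 3.35 and lay below background on all arrays.

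Elf3, an ETS factor of epithelial differentiation that also responds to inflammation, read 9.38, 9.30, 9.22, 9.40 and 9.10 in replicates 1 to 5. Replicate 4 was again highest and replicate 5 lowest, a 1.23-fold range. The mean was 9.28 ± 0.124 (SD, n = 5), 3.76 log2 units above background (SE 0.0998, limma adjusted p = 3.60e-15). Its promoter, on the minus strand of GRCm38.p6 at chr1:135258473-135258722, is shown for the CACCTG match that begins 140 bases before the start.
Elf3: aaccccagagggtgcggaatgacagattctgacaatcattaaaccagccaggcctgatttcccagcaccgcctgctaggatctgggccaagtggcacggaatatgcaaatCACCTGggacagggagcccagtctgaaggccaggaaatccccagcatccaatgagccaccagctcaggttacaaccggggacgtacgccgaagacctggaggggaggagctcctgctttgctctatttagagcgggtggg

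Esrp1 read 13.06, 13.02, 12.95, 13.20 and 12.92 in replicates 1 to 5 from its 1 probe set (13.03 ± 0.110, SD, n = 5). Replicate 4 was highest and replicate 5 lowest, a 1.21-fold range. The signal lay 7.51 log2 units above background (SE 0.0595, limma adjusted p = 5.27e-21).

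Esrp2 was read by 2 probe sets of nearly the same mean, in which replicates 1 and 3 changed places between lowest and highest while replicates 5, 2 and 4 kept their order. Probe set 1433683_at read 11.81, 12.07, 12.12, 12.08 and 12.06 (12.03 ± 0.123, SD, n = 5), with replicate 1 apart from the rest on the low side. Probe set 1419977_s_at read 12.12, 11.99, 11.89, 12.11 and 11.97 (12.02 ± 0.0992, SD, n = 5), with replicate 1 the highest and replicate 3 the lowest. Both were called, 1433683_at at 6.51 log2 units above background (SE 0.0696, limma adjusted p = 6.47e-20), and both ranges were small, 1.24-fold and 1.18-fold. RefSeq places Nfatc3 and the lncRNA gene 1810019D21Rik, also known as Esrp2-as, over part of the Esrp2 locus, and whether the probes also read these was not tested.

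None of the 10 genes passed the test of spread over replicates on its main probe set (F test on the limma variance fit, Benjamini-Hochberg adjusted). The counts were 0 of 10 at an unadjusted p under 0.05, where 5.58% of all genes were, and 0 of 10 after adjustment, where 0% of all genes were. Their SDs ran from 0.0434 to 0.580 with a median of 0.124, beside 0.154 for all called genes. With the median over probe sets in place of the brightest, 1 of the 10 had an unadjusted p under 0.05, Elf5 (0.000694; adjusted p = 0.835).

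Within these small ranges, on the main probe sets, 5 of the 10 genes were highest in replicate 4 and lowest in replicate 5. They were Grhl1, Grhl2, Ehf, Elf3 and Esrp1, and the pattern was picked after the values were seen. Of all called genes 4.11% had it. The other called probe sets of Ehf and Grhl2 did not. Those of Ehf (1419474_a_at and 1419475_a_at) were lowest in replicate 2, and those of Grhl2 in replicate 3 (1431877_a_at) or 2 (1431878_at). Replicate 5 was lowest in 7 of the 10 (14.7% of called genes). The main probe sets of Elf5 and Ovol2 were lowest in replicate 4, and that of Esrp2 in replicate 1. The other Elf5 probe set was highest in replicate 4 (12.33), and with each array centred on its median the main one was lowest in replicate 1. Between replicates 4 and 5 the 5 genes differed by 0.10 (Grhl2) to 0.46 (Grhl1) log2 units. No gene passed the spread test, so these orders were not shown to exceed the spread between replicates. The type 2 markers, known earlier to vary in this way, had the same order in 3 of 8 genes, with mean deviations of 0.06 in replicate 4 and −0.09 in replicate 5. It was also found in 5 of 20 other splicing regulators (Rbm47, Qk, Mbnl1, Celf1 and Hnrnpa1, named after their values were seen) and in 3 of 8 mesothelial markers, and in 0 of 19 junction and barrier genes. Array medians were 7.12 in replicate 4 and 7.19 in replicate 5. With each array centred on its median the count was 6 of 10, and with quantile normalization it was 5 of 10, where Ovol1 joined and Grhl2 left.

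**Figure D3:**
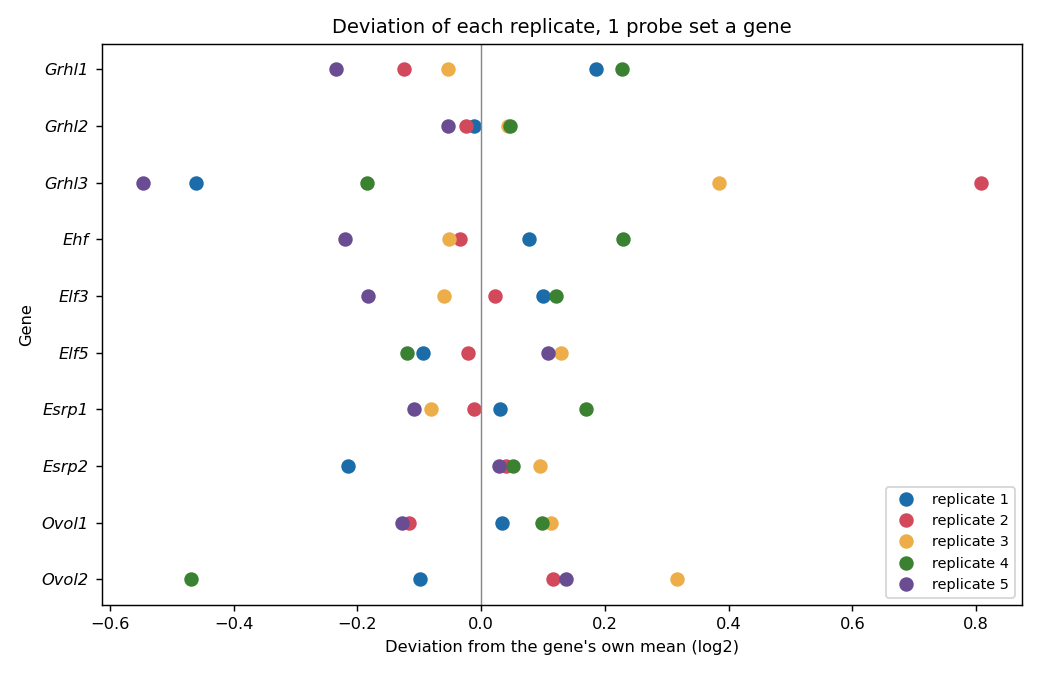
Deviation of each replicate from the gene's own mean (log2, horizontal axis) for the main probe set of each of the 10 genes (vertical axis), with 1 colour per replicate. Replicate 4 is rightmost and replicate 5 leftmost in Grhl1, Grhl2, Ehf, Elf3 and Esrp1, Grhl3 spans the widest range (2.55-fold) and Grhl2 the narrowest (1.07-fold).

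Genes of epithelial junctions and barriers, many of them known targets of grainyhead-like factors, were measured alongside. Of 19 measured genes 19 were called, beside 74.9% of all genes outside the receptor set. The 19 had a median of 6.38 log2 units above background and a median SD of 0.0899. The adhesion gene Cdh1 read 13.37, 13.52, 13.46, 13.45 and 13.32 in replicates 1 to 5, Epcam 13.40, 13.45, 13.45, 13.43 and 13.50, and the claudin genes Cldn3 13.38, 13.44, 13.30, 13.38 and 13.40 and Cldn4 9.35, 9.19, 8.83, 9.08 and 8.95. Cldn4 had the wider range of these, 1.44-fold.

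Genes with exons known to depend on ESRP proteins were called in 17 of 17 cases, beside 74.9% of all genes outside the receptor set. The 17 had a median of 5.78 log2 units above background. Fgfr2 read 13.70, 13.56, 13.54, 13.67 and 13.38, the adhesion receptor gene Cd44 11.97, 11.82, 11.80, 12.27 and 11.88, the catenin gene Ctnnd1 12.75, 12.58, 12.62, 12.72 and 12.66, and the actin regulator gene Enah 10.85, 11.33, 10.84, 10.69 and 11.09. These are signals of 1 probe set per gene, so exon choice was not measured. Of 20 other splicing regulators 18 were called. Rbm47, an RNA-binding protein gene of epithelia, averaged 12.20 ± 0.0850 and Qk 12.94 ± 0.0730 (SD, n = 5), while Rbfox2 and Ptbp1 averaged 8.99 and 11.57. The neuronal splicing factor genes Nova1 (5.69 ± 0.175, limma adjusted p = 0.148) and Nova2 (5.17 ± 0.206, adjusted p = 1) were the exceptions.

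The relatives of the regulators within their own families were also mostly called, beside 74.9% of all genes outside the receptor set. All 3 CP2 genes, the family that includes grainyhead-like factors, were called, with Tfcp2 at 10.35, Tfcp2l1 at 11.76 and Ubp1 at 11.36. With background set by genes of other organs, 12 of 20 measured ETS genes were called, beside 46.4% of genes. With the receptor background 19 of the 20 were called, with Elf1 at 11.34, Elf2 at 10.69, Elf4 at 7.59 and Spdef, a secretory cell factor gene, at 7.85. The exception was Spic, a factor of red pulp macrophages, at 4.31 ± 0.356 (SD, n = 5, limma adjusted p = 1). That list shares Etv5 with the type 2 markers, and Etv1 and Fev were not analysed here.

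Mesenchymal transition factors, which OVOL proteins are known to oppose, were called in 10 of 10 cases, beside 74.9% of all genes outside the receptor set. Their median lay 2.50 log2 units above background, and their median SD was 0.366, beside 0.154 for all called genes. In the F test of spread on the limma fit, 1 of 10 had an unadjusted p under 0.05, beside 5.58% of all genes. After adjustment 0 of 10 passed, where 0% of all genes did. With background set by genes of other organs, 4 of 10 were called, beside 46.4% of genes. Zeb1 read 11.09, 10.62, 10.49, 10.89 and 11.00 in replicates 1 to 5, Zeb2 10.03, 10.52, 9.83, 10.21 and 10.51, Snai1 7.59, 7.95, 8.02, 7.48 and 8.38, and Snai2 10.02, 10.88, 9.84, 9.98 and 10.68. Replicate 3 held the lowest value in 8 of the 10, beside 24.6% of called genes and 0 of the 10 epithelial regulators on their main probe sets. Among the regulators' other probe sets, replicate 3 was lowest in 1419977_s_at of Esrp2, with a mean of 12.02 beside 12.03 for the main one. Replicate 3 was lowest as well in 1431877_a_at and the uncalled 1452643_at of Grhl2. It was also lowest in 8 of 8 fibroblast and smooth muscle markers (mean deviation −0.86), 6 of 8 immune (−0.43), 5 of 8 ciliated (−0.56) and 5 of 8 endothelial markers (−0.17), and in 7 of 19 junction and barrier genes. The part of these cell types in the signals of the transition factors was not tested.

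**Figure D4:**
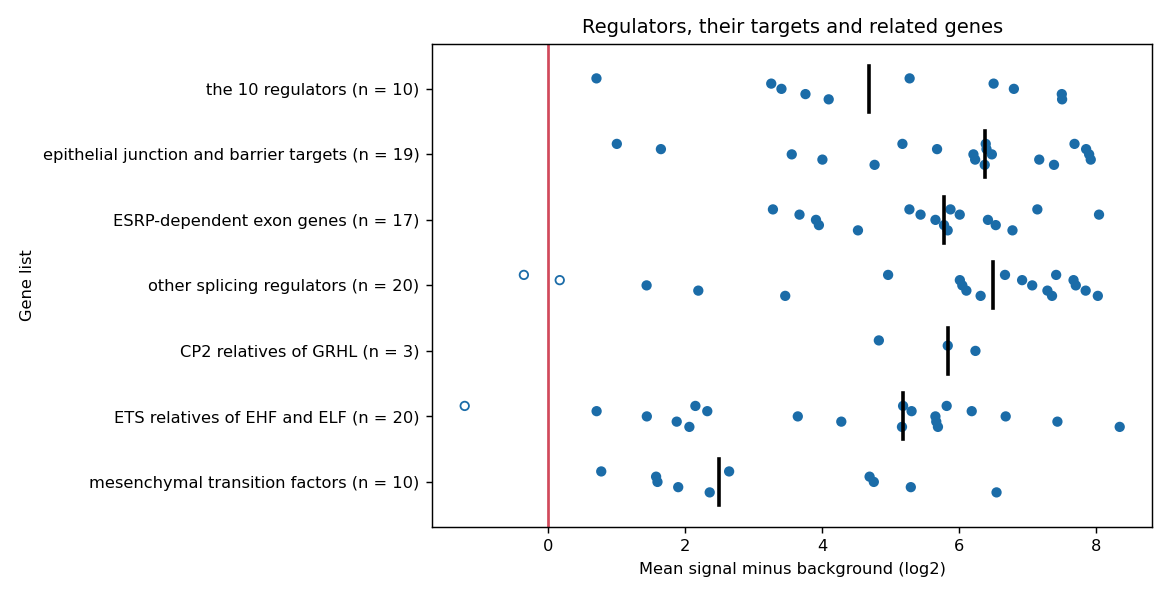
Mean signal minus background (log2, horizontal axis) of each gene of the 10 regulators and of 6 related lists (vertical axis, with the number of measured genes). Filled points were called above background, open points were not, black bars are list medians and the red line is background at 0; the regulators' median is 4.69 and that of the mesenchymal transition factors 2.50, and distances are not comparable between single genes.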

How the data were processed

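Signal was measured on 1 one-colour Affymetrix array for each of 5 samples. Amplification and biotin labelling used NuGEN kits of the Ovation series, per the labels' protocols. The deposited values are on a log2 scale, a base inferred from their range (2.46 to 15.24); which software, background correction and normalization produced them is not given in the sources used here. Platform annotation of 2016 named the probe sets, and those with several symbols (932) or unnamed here (9211) were left out. All 10 symbols were matched by gene identifier to RefSeq.

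Each of 18194 genes was taken from its brightest probe set by mean, a rule that favours signal, and every member probe set was also tested. On each array, background was set at the 95th percentile over 77 chemosensory receptor genes (85 probe sets). Each value less its background entered an intercept model in limma 3.58.1 under R 4.3.3 (eBayes with a mean-variance trend) and tested one-sided; called means a Benjamini-Hochberg adjusted p under 0.05 over all genes or all single-symbol probe sets. By that rule 4 of the 77 receptor genes were called, a count largely set by taking their own 95th percentile as background. The spread of a gene was its observed variance relative to the one limma fitted at that signal (trend, robust; F test, one-sided, with 4 and 4.22 degrees of freedom).

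Both tests were tested on simulated data of 18194 genes. The background test recovered 69% of genes at 0.5 and 100% at 1 log2 unit above background. In that simulation few genes lay above background, background was the same on all arrays, and each gene had the fitted SD. In the data 74.9% of genes outside the receptor set were called, so recovery there may differ. For the spread test the SD of a gene, not its variance, was multiplied. With the SD multiplied by 5, 13% of genes were recovered after adjustment and 89% before it. With the SD multiplied by 20, 86% were recovered after adjustment. The alternatives were other background percentiles and genes, between-array scaling, the choice of probe set, variance models, a filter on low signal and leaving out each replicate. Members and lists were chosen with earlier results of these data known. The rule for naming genes covered all members, the first 4 of each related list and its uncalled genes where 5 or fewer. It also covered the first 2 of each marker list, of which only some are named here. Others are said to have been chosen after their values were seen.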

Additional observations from a re-analysis of the deposited data

Results flagged for a closer look

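The screen took 65 sets of 5 values: the 19 member probe sets and the other genes under the naming rule, including marker genes not named here. Of these, 3 had 1 replicate far from the rest, meaning a gap to the nearest other value of over 0.71 of the whole range. Chance gives about 1 in 20. The Esrp2 probe set 1433683_at had a gap of 0.791 of its range, with replicate 1 low at 11.81 against 12.06 to 12.12; the other Esrp2 probe set was highest in replicate 1, at 12.12. Rbm47 had a gap of 0.776, with replicate 5 low at 12.05 against 12.21 to 12.26. Qk had a gap of 0.772, also with replicate 5 low, at 12.81 against 12.96 to 13.00.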

How the results depend on the processing

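Of 107 recounts of the main results under an alternative, 105 stayed within 1.5 times the value first given. That limit is wide: drops to 7 of 10 regulators and 12 of 19 member probe sets lie within it. The recounts include the spread count of 0 of 10, where 0% of all genes passed, so it could hardly move. The spread count at an unadjusted p under 0.05, which went from 0 to 1 with the median over probe sets, was not included. The 2 recounts beyond the limit used 47 genes restricted to other organs as background: 4 of 10 mesenchymal transition factors and 12 of 20 ETS genes were then called. That background lay at 8.88 to 9.14 log2 units, 46.4% of genes passed it, and 16 of the 47 themselves were called above the receptor background. Under it 7 of the 10 regulators were called: Grhl3 lay at −2.81, Ovol1 at −0.25 and Ovol2 at −0.11 log2 units relative to it. With the 99th percentile of receptor genes, Grhl3 lay at −0.25. The other members kept their call in all alternatives run. Leaving out 1 replicate at a time left 10 of 10 regulators called, and 16 to 17 of their 19 probe sets. No paired analysis was possible because there was 1 group.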
